A study of Mus musculus with 2 samples.

Results

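DNase-seq of mouse urinary bladder gave lists of footprints, short stretches inside accessible chromatin that DNase I cut less often than the bases around them. The regions described here are the long footprints, of 25 bp or more, that recurred in both libraries. A footprint on chromosomes 1 to 19 was taken when it overlapped, by at least 50% of both lengths, a footprint of the other library that was also 25 bp or longer. This rule took 8230 footprints of each library, out of 172938 autosomal footprints in replicate 1 and 224283 in replicate 2. They were chosen by the measured length and overlap, which are given as description, while their sequence, their place in the genome and the signal of the peaks around them were not used.

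The tissue was urinary bladder from adult female mice of B6CASTF1/J, the F1 hybrid of C57BL/6 with CAST, which were 18 to 20 months old. The design holds 1 group with 2 libraries, given in the labels as biological replicates 1 and 2. Both are listed under the same donor record, nothing says whether they came from separate animals, and no treatment or second genotype is given. Values are therefore shown per library, with the mean ± SD over n = 2, and no test between groups exists. The SD of a sequence share covers only the difference in edges at the same 8230 sites and may be technical.

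Footprints arise where a bound protein shields DNA from the enzyme, so their length can follow the stretch of DNA in contact with protein. CTCF, an insulator protein that holds chromatin loops together with cohesin, contacts DNA through a long row of zinc fingers, and some of its sites carry a second motif upstream of the core that further fingers of the same protein can contact. Other factors read longer or joined elements too, among them REST, a repressor of neuronal genes in other tissues, CREB and ATF proteins, which bind the cAMP response element (CRE), and TFIIIC, which binds the inner promoter of tRNA genes.

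The sequences below are those of the reference genome at the long footprints, with the edges of replicate 1, and the alleles of the CAST strain were not analysed. The first set shows CTCF sites. Capitals mark the 12-bp CTCF core. The footprint near Cbl has the usual 5′ edge, 5 bp before the core. That near Gm31371 began 8 bp before the core in replicate 1. In replicate 2 it measured 43 bp and began further upstream, at position 20122176, so it was extended in that library only. The other 3 are footprints that ran at least 18 bp past the 5′ end of the core in both libraries.
CTCF near Gm31371: tataggggCCACCAGAGGGCgcgaggc
CTCF near Cbl: cttctCCAGCAGAGGGCgcaggcac
CTCF extended near Ptma: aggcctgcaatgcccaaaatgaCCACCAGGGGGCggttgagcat
CTCF extended in Camta1: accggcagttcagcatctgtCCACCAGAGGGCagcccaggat
CTCF extended in Aanat: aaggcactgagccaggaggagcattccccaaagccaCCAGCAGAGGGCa
On the mm10 build these lie at chr8:20122191-20122217 (plus strand, between genes), chr9:44234237-44234261 (minus strand, between genes, 200 bp from the Cbl transcription start site, TSS), chr1:86501761-86501804 (plus strand, between genes), chr4:151141711-151141752 (minus strand, intron) and chr11:116592608-116592656 (minus strand, intron).

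The next set shows long footprints at promoters, where the capitals mark the CRE (TGACGTCA), an ETS site joined to part of a CRE (GAAGTGACG), the ZNF143 element, the ZBTB33 palindrome or the YY1 element (AAGATGGCG). All of these lie between genes by their midpoint, 20 to 173 bp from a TSS. Between genes means, here and throughout, outside the bodies of protein-coding genes.
CRE at Ube2h: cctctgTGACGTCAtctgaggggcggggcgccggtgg
CRE at Gtf3c1: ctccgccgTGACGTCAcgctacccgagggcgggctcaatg
ETS-CRE at Slc38a10: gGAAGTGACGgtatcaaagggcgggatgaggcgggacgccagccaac
ETS-CRE at Lrrc8a: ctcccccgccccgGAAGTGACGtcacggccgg
ZNF143 at Nup153: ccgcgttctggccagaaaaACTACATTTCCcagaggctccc
ZNF143 at Ube2h: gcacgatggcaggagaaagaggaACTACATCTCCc
ZBTB33 at Atf7: actTCTCGCGAGAagtgggggcgagggcgc
ZBTB33 at Ncapg: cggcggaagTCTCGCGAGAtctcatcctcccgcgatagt
YY1 at Slmap: gcccttaacaAAGATGGCGccaggg
Their positions, in the same order, are chr6:30304550-30304586 (plus), chr7:125707795-125707834 (plus), chr11:120151343-120151389 (plus), chr2:30237654-30237685 (minus), chr13:46728093-46728133 (minus), chr6:30304635-30304669 (minus), chr15:102625480-102625509 (plus), chr5:45669854-45669892 (plus) and chr14:26535040-26535064 (minus). Ube2h, which encodes a ubiquitin-conjugating enzyme, held a CRE footprint 29 bp and a ZNF143 footprint 113 bp from its TSS, in the same peak.

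The last set shows REST sites and tRNA genes. Capitals mark the REST element and the B box letters GGTTCGA, the inner promoter element of tRNA genes that TFIIIC binds.
REST in Xkr6, first: cgcaggcAGCACCACGGACAGctcccacgg
REST in Xkr6, second: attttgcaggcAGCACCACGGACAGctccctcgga
tRNA n-TRtcg5: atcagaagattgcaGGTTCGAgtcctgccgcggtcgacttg
tRNA n-TStga3: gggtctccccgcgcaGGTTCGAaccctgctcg
The REST footprints lie in an intron of Xkr6 at chr14:63681679-63681708 and chr14:63681740-63681774, both read on the plus strand. The tRNA footprints lie at chr7:79466456-79466496 and chr10:63429481-63429512, each printed along its gene, on the plus strand for n-TRtcg5 and on the minus strand for n-TStga3.

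The files on which these results rest differed in size. Replicate 1 had 84591 peaks in its longer list and replicate 2 had 112174, and total read depth is unknown. Long footprints made up 6.30% of the autosomal footprints of replicate 1 (10892) and 9.49% of those of replicate 2 (21283). The tissue label was checked by promoter peaks, which stood at 24 and 23 of 24 urothelium genes, 18 and 13 of 20 smooth muscle genes and 3 and 3 of 14 hepatocyte genes in replicates 1 and 2.

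The long shared footprints were 75.6% of all long footprints of replicate 1 but 38.7% of those of replicate 2. Their median length was 30 bp in replicate 1, with quartiles of 27 and 34 bp, and 32 bp in replicate 2, with quartiles of 29 and 37 bp. The longest reached 75 bp and 74 bp, while the median of all autosomal footprints was 9 bp and 10 bp. In 3766 pairs (45.8%) both edges lay within 2 bp of each other. The footprint was longer in replicate 2 in 4949 pairs, longer in replicate 1 in 2150 and of equal length in 1131. Where lengths differed by 10 bp or more, 803 pairs were longer in replicate 2 and 142 in replicate 1. Just inside the length threshold, 2139 pairs had a shorter partner of 25 or 26 bp and 15.3% of them held an exact CTCF match. Just outside it, 2903 pairs had a shorter partner of 23 or 24 bp, with 11.9%.

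**Figure D1:**
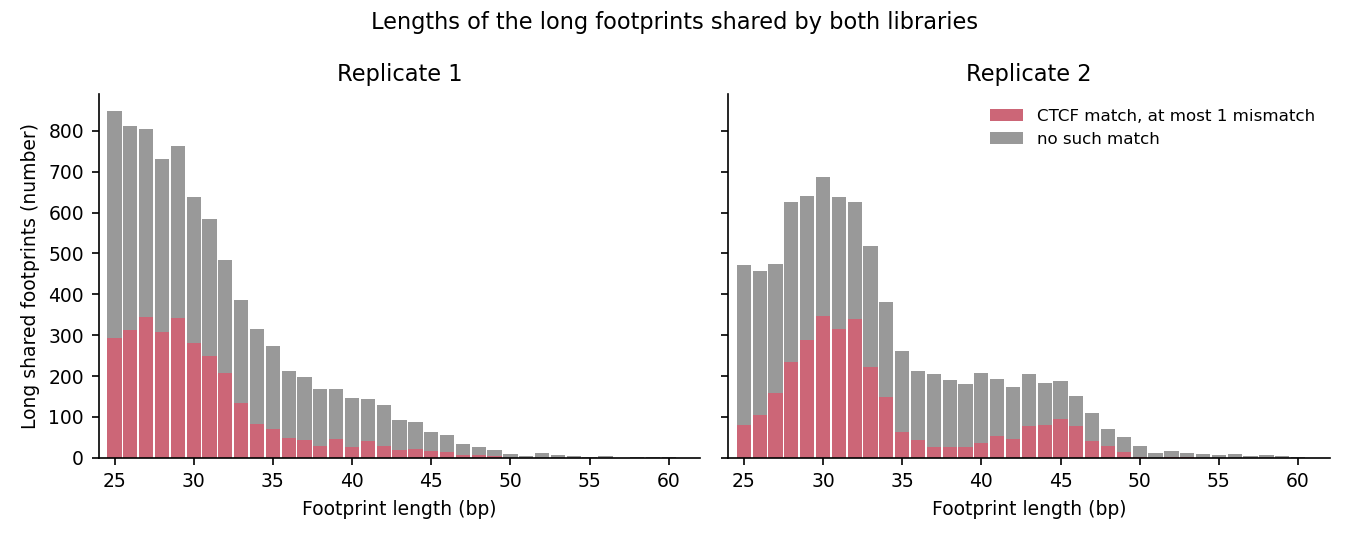
Number of long shared footprints (vertical axis) by length in bp (horizontal axis) in each replicate, split into those with a CTCF match of at most 1 mismatch in the 50-bp window and those without. Replicate 2 shows a main group around 30 bp and a further group of CTCF footprints around 45 bp, where replicate 1 has few; lengths above 60 bp are not drawn.

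Most long footprints that did not recur as long still lay on a footprint of the other library. Of the 2662 unshared long footprints of replicate 1, 2536 overlapped only shorter footprints of replicate 2, and 91 overlapped none. Of the 13053 unshared long footprints of replicate 2, 10453 overlapped only shorter footprints of replicate 1, and 2565 overlapped none. The unshared sets differed in content. A CTCF match of at most 1 mismatch lay in 39.6% of the unshared long footprints of replicate 2 and in 6.42% of those of replicate 1.

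CTCF had the highest ratio of all named motifs when long footprints were set beside shared shorter ones. Motifs were read as consensus letters on both strands in a 50-bp window centred on each footprint, and the comparison was with 49939 shared shorter footprints, whose partners were both under 25 bp. An exact match to the 12-bp CTCF core lay in 1274 long footprints in each replicate (15.5%), against 2.65% of all autosomal footprints of replicate 1 and 2.79% of those of replicate 2. In shared shorter footprints the share was 1.31% ± 0.0113 (SD, n = 2), which gives a ratio of 11.8. The share was higher in the long footprints on 19 of 19 autosomes. With at most 1 mismatch, the CTCF core was found in 36.2% ± 0.0172 of the long footprints and in 4.08% ± 0.0212 of the shorter ones, and this looser match is called CTCF from here on.

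Among all autosomal footprints, the share with CTCF depended on length. It was 3.58% and 3.02% at 7 to 9 bp, 19.5% and 19.6% at 23 to 24 bp, and 35.8% and 44.9% at 28 to 30 bp. It was lower at 37 to 39 bp, 20.2% in replicate 1 and 25.04% in replicate 2. At 43 to 45 bp it was 47.7% in replicate 2, while in replicate 1 it stood at 22.2%.

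**Figure D2:**
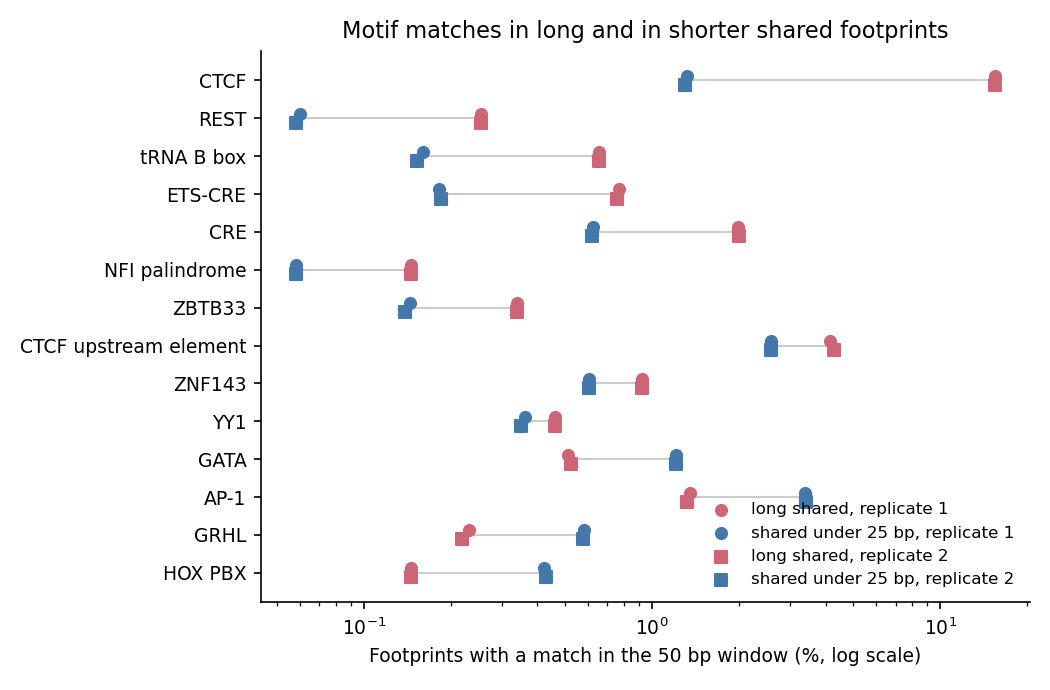
Share of footprints with a motif match in the 50-bp window (horizontal log axis, percent) for the motifs named in the text, in long shared footprints and in shared footprints under 25 bp, with 1 point for each replicate. CTCF shows the widest gap, at 15.5% against 1.31%, and the AP-1, GATA, GRHL and HOX PBX points lie on the other side, lower in the long footprints.

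Elements of other promoter and repressor factors were also more frequent in the long footprints. The CRE lay in 2.00% ± 0.00859 (SD, n = 2) of them and in 0.622% ± 0.00142 of the shorter ones, a ratio of 3.21, with the higher share in the long footprints on 19 of 19 autosomes. Beside shared footprints of 15 to 24 bp the CRE ratio was only 1.25. REST matched 21 long footprints in each replicate, 0.255% against 0.0591% ± 0.00142, a ratio of 4.32, and its share was higher in the long ones on 10 of 19 autosomes. The REST ratio passed that of CTCF when matches were counted per kb of footprint, 10.8 against 9.18, and beside shared footprints of 15 to 24 bp, 6.94 against 5.98. The NFI palindrome, bound by nuclear factor I dimers, had a ratio of 2.51 but only 12 long footprints in each replicate, with a higher share on 11 of 19 autosomes. Beside shorter footprints in the same peaks its ratio was 24.7, with 23.2 for CTCF, and beside those of 15 to 24 bp it was 0.933. Only 29 shared shorter footprints held the palindrome in each replicate, against 660 and 652 for CTCF, so its ratios rest on few matches. ZBTB33, a factor of CpG-rich promoters, matched 28 in each replicate, a ratio of 2.41, which was 1.00 beside footprints of 15 to 24 bp. ZNF143, a promoter factor, matched 76 in each, a ratio of 1.53, which was 1.06 beside footprints of 15 to 24 bp. YY1 matched 38 in each, a ratio of 1.295. Within 1 kb of a TSS its share was lower in the long footprints, at 0.509% against 0.580%. Farther away it was higher, at 0.418% against 0.0954%. The letters AGATGGC within the YY1 element can also be read as the end of the CTCF core. In the classes given below, where CTCF came first, 21 were left for YY1. The autosomes with a higher share numbered 13 for ZBTB33, 16 for ZNF143 and 12 for YY1. The letters TGCAGT, known upstream of some CTCF sites, lay in 4.22% ± 0.0945 against 2.58% ± 0.00283.

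The 4 motifs with the lowest ratios were those of HOX PBX, GRHL, AP-1 and GATA. AP-1 (TGANTCA), bound by Fos and Jun dimers, lay in 1.34% ± 0.0172 of the long footprints and in 3.40% ± 0.00991 of the shorter ones, a ratio of 0.393, and the share was higher in the long footprints on 0 of 19 autosomes. The element of GATA factors, AGATAA, stood at 0.516% against 1.21%, a ratio of 0.426. GRHL (AACCNGTT), read by grainyhead-like factors, had a ratio of 0.389 and HOX PBX (TGATTNAT) 0.343. Against shorter footprints in the same peaks, the AP-1 ratio was 1.09, so its lower share did not hold within the peaks that hold long footprints. The AP-1 letters that did fall in a long footprint's window lay wholly inside the footprint in 34.2% and 28.4% of cases, against 93.9% and 95.2% for the CRE. In shared shorter footprints AP-1 lay wholly inside in only 11.5% and 11.9% of cases, and the CRE in 65.3% and 70.3%. Most AP-1 matches of both classes thus lay at least partly outside the footprint. REST matches sat near the middle, with a median of 1.0 bp between the centres and 20 and 21 of 21 wholly inside.

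The 5′ edge lay 3 to 7 bp before the CTCF core in 68.4% and 70.5% of the long footprints with CTCF in replicates 1 and 2. With the core read in the direction shown in the sequences above, the footprint began a median of 5 bp before it in replicate 1 (quartiles 4 and 7) and 6 bp in replicate 2 (quartiles 5 and 9). It ended a median of 11 bp past the core in replicate 1 and 12 bp in replicate 2, so that the protected stretch reached further on the 3′ side than on the 5′ side. Of the 2979 CTCF footprints of replicate 1, 2888 (96.9%) held the whole core, and 2954 of 2977 (99.2%) did in replicate 2.

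**Figure D3:**
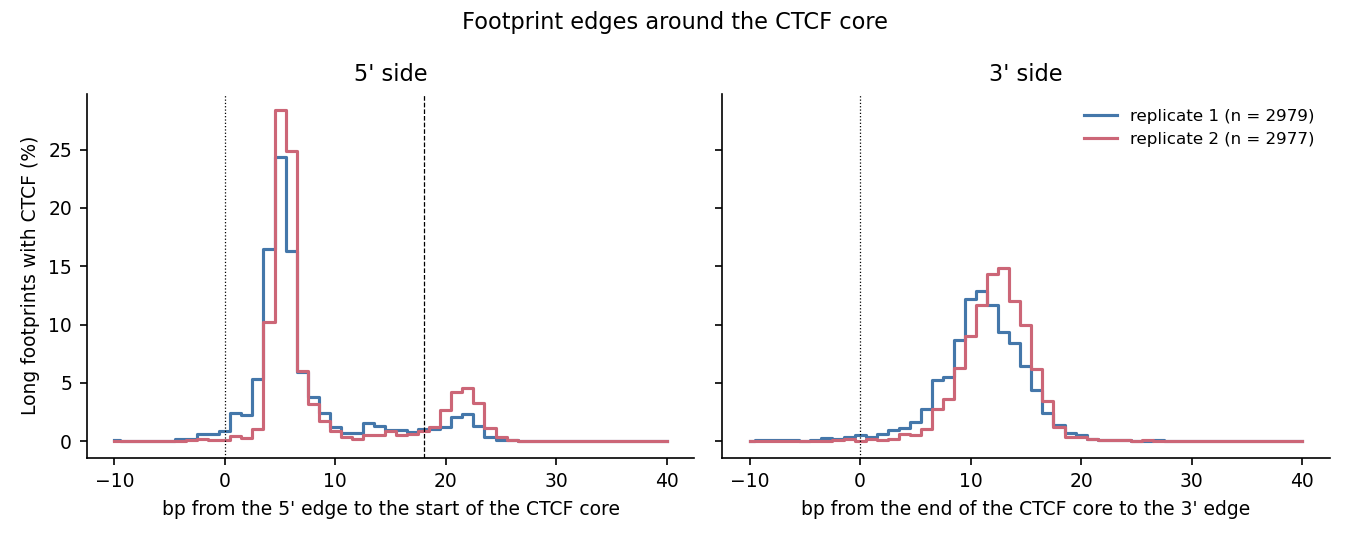
Distance in bp from the footprint's 5′ edge to the start of the CTCF core (left) and from the end of the core to the 3′ edge (right), as percent of the long footprints with CTCF (vertical axis) in each replicate; the dotted line marks the edge of the core and the dashed line 18 bp. Most 5′ edges fall 3 to 7 bp before the core, and a further group beyond 18 bp is larger in replicate 2 (18.7%) than in replicate 1 (9.80%).

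A further group of CTCF footprints ran 18 bp or more past the 5′ end of the core. It held 292 footprints in replicate 1 (9.80%) and 558 in replicate 2 (18.7%), with median lengths of 40 bp and 44 bp, against 29 bp and 30 bp where the edge lay 3 to 7 bp before the core. An extension of that size on the 3′ side was rarer, at 3.36% and 2.65%. The same CTCF site was found in both libraries for 2968 footprints. Of these, 258 were extended in both, 300 in replicate 2 only, 32 in replicate 1 only and 2378 in neither. The sites extended in replicate 2 only had a median length of 30 bp in replicate 1 and 44 bp in replicate 2, so the same sites belonged to the shorter class in replicate 1 and to the longer class in replicate 2.

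The extended footprints carried further sequence before the core. The base composition was uneven from 17 to 9 bp before it, and the element GCANTNCC was read off positions -16 to -9 after the composition had been seen, so its shares describe these sites and are no independent evidence. The base T at position -17, outside the element, was present at 61.2%, 64.7% and 24.1% of the sites extended in both, in replicate 2 only and in neither. The first letter, G at position -16 counted from the first base of the core, was present at 84.9% of the sites extended in both, at 79.7% of those extended in replicate 2 only and at 35.2% of those extended in neither. At least 5 of its 6 fixed letters were present at 164 of the sites extended in both (63.6%), at 159 of those extended in replicate 2 only (53%) and at 111 of those extended in neither (4.67%). TGCAGT, which was on the list of motifs and was not read off these sites, lay within 30 bp before the core at 24.4%, 17% and 2.61% of the same classes. It contains GCAGT, a match to the GCANT that opens the element. The motif list was also chosen with earlier results of these data known, so TGCAGT is no separate evidence. Of the 444 sites with the element, 39.2% were extended in replicate 1 and 72.7% in replicate 2, against 4.596% and 9.31% of the sites without it. In the sequences printed above, the Ptma, Camta1 and Aanat sites each hold at least 5 of these letters before the capitals.

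**Figure D4:**
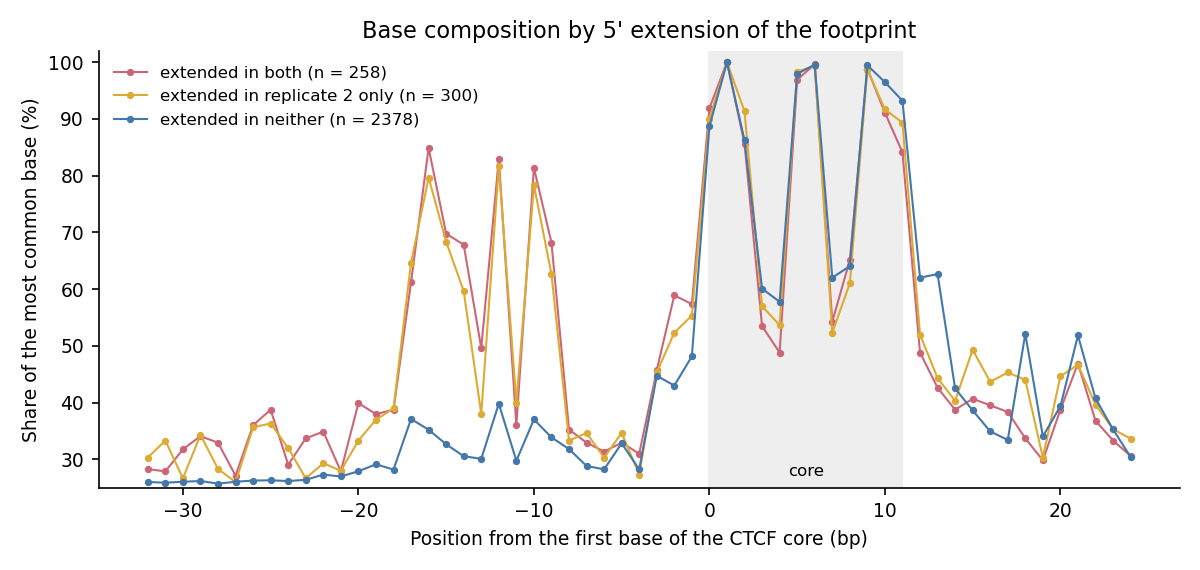
Share of the most common base in percent (vertical axis) at each position from the first base of the CTCF core (horizontal axis, bp), for CTCF sites extended in both libraries, in replicate 2 only and in neither. All 3 classes share the core, and from 16 to 9 bp before it the extended classes rise to 84.9% and 81.7% at single positions where the other class stays below 40%.

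The extension did not go with a core closer to the consensus. An exact core was found at 25.97% of the sites extended in both, 34.7% of those extended in replicate 2 only and 46.05% of those extended in neither. The host peak, the peak of the longer list that contains the footprint, had a median deposited signal of 1.89 in replicate 1 and 3.59 in replicate 2 at the sites extended in both, 1.56 and 3.16 at those extended in replicate 2 only, and 1.62 and 2.84 at those extended in neither. Replicate 2 thus had the higher host signal in all 3 classes, and the part of this in the longer edges was not tested.

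The long footprints with and without CTCF lay in different places. Of those with CTCF, 15.01% ± 0.0404 (SD, n = 2) lay within 1 kb of the TSS of a protein-coding gene, 31.8% in introns and 48.9% between genes, at a median of 10102 bp from a TSS in replicate 1 and 10126 bp in replicate 2. Of those without CTCF, 66.3% ± 0.00438 lay within 1 kb, at a median distance of 133 bp. Taken as a whole, 47.7% ± 0.00859 of the long footprints lay within 1 kb of a TSS, below the 53.8% ± 0.00142 of shared shorter footprints. Against all footprints under 25 bp, shared or not, the difference turned round, to 6.87 percentage points higher in the long ones. The 50-bp windows held 62.1% ± 0.0170 GC in the long footprints and 60.8% ± 0.00272 in the shorter ones, but the difference turned to -1.18 percentage points in 200-bp windows and to -1.88 in the footprint alone.

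At promoters the long footprints without CTCF stood mainly before the TSS. Of the 3480 in replicate 1, 81.3% lay on the upstream side, and 53.8% fell in the last 100 bp before the TSS against 13.2% in the first 100 bp after it. Shared shorter footprints without CTCF had 68.9% upstream, with 40.7% and 20.3% in the same stretches. Replicate 2 gave 81.2% and 68.8% upstream. Over all long footprints within 1 kb of a TSS, those with CTCF included, the windows held the GC box (GGGCGG), read by SP and KLF factors, in 37.4% against 29.2% of the shorter ones, and the CCAAT box, read by NFY, in 12.02% against 9.77%. The CRE stood at 3.56% against 0.897%.

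**Figure D5:**
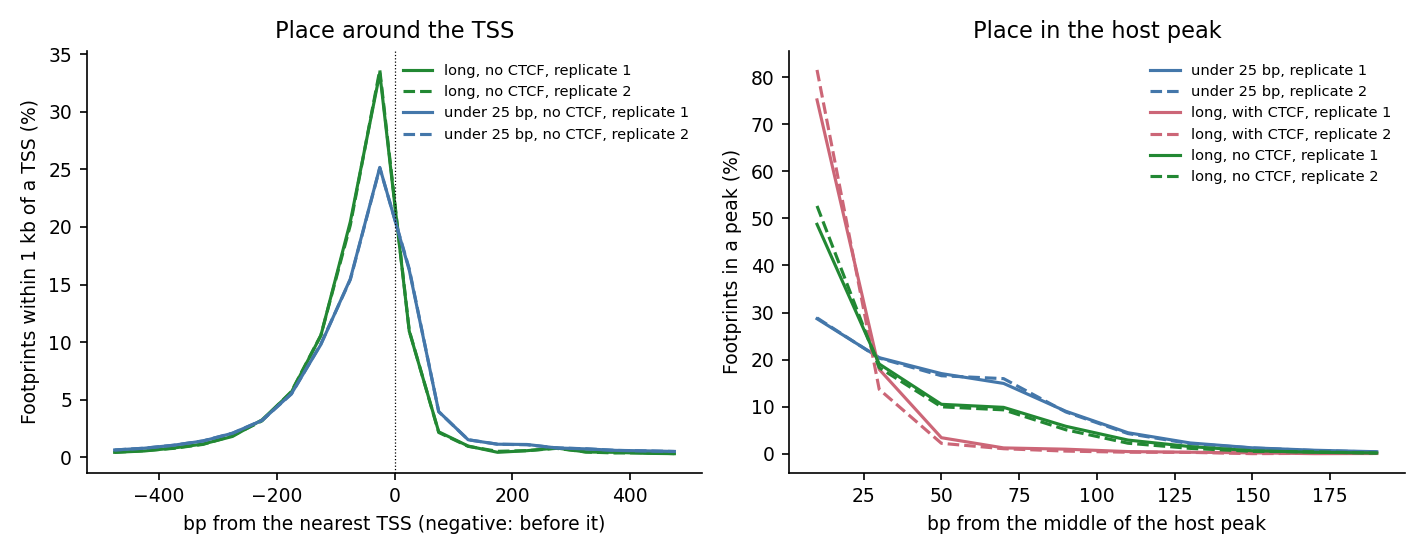
Left, share of footprints within 1 kb of a TSS (vertical axis, percent) by distance from the TSS in 50-bp steps (horizontal axis, bp) for long and shorter shared footprints without CTCF. Right, share of footprints in a peak (percent) by distance from the middle of the host peak in 20-bp steps; solid and dashed lines are replicates 1 and 2. Long footprints without CTCF peak just before the TSS, and long footprints with CTCF lie nearest to the middle of the peak.

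Each long footprint was put in 1 class, taken in the order given here. CTCF in both libraries held 2977 (36.2%), tRNA genes 62 (0.753%), the CRE 162, REST 21, ZNF143 72, ZBTB33 27, YY1 21 and the NFI palindrome 12. None of these applied to 3208 (39.0%) within 1 kb of a TSS and to 1668 (20.3%) farther away. These classes depend on the CTCF threshold, since 377 of the 3208 (11.8%) and 600 of the 1668 (36.0%) held a CTCF core with 2 mismatches in both libraries. In each class of promoter motif most members stood at promoters, from 86.4% for the CRE and 90.5% for YY1 to 93.1% for ZNF143 and 100% for ZBTB33.

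To look for letters the list had left out, 8-bp words were counted in the footprints with more than 2 mismatches to the CTCF core and ranked by their ratio of long over shared shorter footprints, a step added after seeing the data. Within 1 kb of a TSS, words that hold parts of TGACGTCA led. TGACGTCA itself lay in 136 of 3086 (4.41%) against 0.921% of the shorter footprints, and ACGTCACT, on the other strand AGTGACGT, in 72 (2.33%) against 0.388%. Farther from a TSS, GGGTTCGA, which contains the B box letters of tRNA genes, lay in 30 of 1163 (2.58%) against 0.0553% of the shorter ones in replicate 1. It was followed there by ACAGCGCC, with a ratio of 12.7. That word begins with ACAG, the last letters of the REST element printed above, and whether it marks REST sites was not tested. GCGCCCCC came next, with 9.13. GCGCCCCC reads GGGGGCGC on the other strand and so holds the last letters of the CTCF core as in the Ptma site, as does AGGGGGCG, with 4.18. The list was then extended, for description, by the ETS-CRE letters GAAGTGACG, in 0.759% ± 0.00859 against 0.183% ± 0.00142, and by the B box letters, in 0.656% against 0.156% ± 0.00566.

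Some long footprints lay on tRNA genes, and 47 of these held the B box letters in their 50-bp window in each replicate. In replicate 1, 62 long footprints lay on 58 of the 386 autosomal tRNA genes in the RefSeq annotation, and in replicate 2, 80 lay on 66 genes. That is 0.753% and 0.972% of the long footprints against 0.112% of the shared shorter ones. The shared shorter footprints, which are more numerous, lay on 49 of the same 386 genes (12.7%), against 15.03% and 17.1% for the long ones. Counted along the gene from its first base, the long footprints ran from a median of 40 bp to 74.5 bp in replicate 1. In replicate 2 they ran from 37 bp to 74 bp. The genes had a median length of 73 bp, so these footprints took in the downstream part of the gene. By the mean signal of both libraries, the strongest host peak was that of n-TRtcg5, an arginine tRNA gene at chromosome 7, 79466419 to 79466491, with a signal of 10.2 in replicate 1 and 12.1 in replicate 2 and footprints of 41 and 44 bp. By the same mean n-TStga3, a serine tRNA gene, came next, with 9.34 and 12.2 and footprints of 32 and 43 bp. In replicate 1 alone, n-TNgtt14 (10.46) and n-TLaag4 (10.41) stood above both, and in replicate 2 n-TStga3 was first. By the edges of replicate 1, a further long footprint lay at the edge of the gene in the same peak in 4 tRNA genes, n-TGccc7, n-TIaat6, n-TGtcc2 and n-TNgtt9. Near-identical copies of tRNA genes can share reads, so the signal of any of them is uncertain.

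Long footprints sat in strong peaks and near their middle. A peak of the longer list held 97.6% and 98.1% of them in replicates 1 and 2, against 92.3% and 91.9% of the shared shorter ones. The median signal of their host peaks, each counted once, was 2.55 in replicate 1 and 3.69 in replicate 2, against 1.52 and 1.77 for hosts of shared shorter footprints and 0.827 and 0.769 over all autosomal peaks. Of the hosts, 66.2% and 91.6% were among the strongest 20% of the autosomal peaks of their library. The median distance from the middle of the peak was 14 bp and 11 bp for the long footprints and 41 bp and 40.5 bp for the shorter ones. Those with CTCF lay nearest, at 8 bp and 6 bp. Most hosts held 1 long footprint, and 630 and 631 held several, up to 4.

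Host peaks of long footprints had more signal in replicate 2, and the difference was larger at those with CTCF. Peaks were paired 1 to 1, and log2 ratios of replicate 2 over replicate 1 were centred on the median of all 68801 autosomal pairs. Of all pairs, 15.2% were more than 1.5-fold higher in replicate 2 and 7.26% more than 1.5-fold lower. Of the 7268 paired hosts of long footprints, 2213 (30.4%) were higher and 64 (0.881%) lower, with a median centred log2 ratio of 0.29. Of the 2931 hosts with CTCF, 1658 (56.6%) were higher and 2 lower, with a median signal of 1.62 in replicate 1 and 2.93 in replicate 2 and a median log2 ratio of 0.64. Of the 4335 hosts without CTCF, 555 (12.8%) were higher and 62 (1.43%) lower, with a median log2 ratio of 0.05. The split by CTCF and by promoter distance was added after seeing the data.

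The distance to a promoter moved with this ratio. Of all pairs within 1 kb of a TSS, 5.06% were higher and 5.16% lower, with a median centred log2 ratio of -0.069. Of all pairs farther away, 20.1% were higher and 8.26% lower, with a median of 0.054. Hosts without CTCF within 1 kb of a TSS had a median centred log2 ratio of -0.03 and those farther away 0.31. Hosts with CTCF had 0.30 within 1 kb and 0.68 farther away, where 1539 of 2507 were higher and 0 lower. Within either distance class the hosts with CTCF thus stood above those without. Replicate 2 also had more footprints and more peaks, and whether the tissue sample, the library or its depth goes with the difference cannot be told apart with 1 library on each side.

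The 10 longest members by mean length were of several kinds. The longest of all, 75 and 74 bp, lay between genes at chromosome 4, 67208571 to 67208645. Its central 50-bp window was wholly repeat-masked, as was that of the footprint near Gm10718. Those at 60 and 61 bp 39 bp from the TSS of Epb41, which encodes a membrane skeleton protein, and at 58 and 59 bp in an intron of Foxn3, which encodes a forkhead factor, held CCAAT boxes, with host signals of 8.79 ± 0.676 and 11.52 ± 0.812. Footprints of 58 and 58 bp near Mettl26 and of 56 and 57 bp near Mok lay at tRNA genes. The site near Peak1 measured 51 bp in replicate 1 and 71 bp in replicate 2, and the site near Myl12b 49 and 66 bp.

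The strongest host peaks with a long footprint differed between the replicates in part. The peak near Igf2bp3, 21479 bp from its TSS and between genes, had a signal of 19.7 in replicate 1 and 42.0 in replicate 2, and its footprint measured 34 and 44 bp. That in Kpna1, which encodes an importin, had 18.9 and 38.2, and that in Il31ra 19.6 and 35.2. These 3 were more than 1.5-fold higher in replicate 2 after centring. The peak near Dynlt1b, 29 bp from its TSS, had 23.3 and 26.6, with footprints of 45 and 44 bp, and the peak 48 bp from a Trpm8 TSS had 26.02 and 30.4. Neither of these passed 1.5-fold. The strongest host with an exact CTCF match was that near Gm31371, at 11.8 and 15.6, whose footprint measured 27 bp in replicate 1 and 43 bp in replicate 2.

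Gene lists were compared by the share of genes with a long footprint in the gene body or within 10 kb of it, beside 7093 of 20807 autosomal protein-coding genes (34.1%). Housekeeping genes had one at 12 of 14 (85.7%) and immediate early genes, which are induced within minutes of a stimulus, at 13 of 17 (76.5%). For members farther than 1 kb from a TSS, housekeeping genes stood at 2 of 14 (14.3%), beside 14.8% of all genes, and immediate early genes at 10 of 17 (58.8%). Among the immediate early genes, Jun held 6 long footprints, Jund 5 and Junb 4. The promoter of Jun carried 3 of them in 1 peak, with a signal of 10.1 in replicate 1 and 11.3 in replicate 2, at lengths of 34 and 35 bp, 35 and 36 bp, and 26 and 38 bp. The promoter of Junb, with 5.46 and 6.05, carried a long footprint with the CArG box, which serum response factor reads. Those of Jund and Ier2 carried a CRE.

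The lists of the organ's cell types lay between 28.6% and 42.9% in this stretch. Urothelium genes had a long footprint at 7 of 24 (29.2%), beside 34.1% of all genes. A shared shorter footprint, of which there are more, lay in the same stretch at 23 of 24, beside 69.1% of all genes. Smooth muscle genes had a long footprint at 8 of 19, fibroblast genes at 5 of 16, endothelium genes at 6 of 14 and immune genes at 4 of 14. Hepatocyte genes had one at 2 of 13 and central neuron genes at 5 of 11. Imprinted genes had 6 of 20, Hox genes 13 of 39 and neuronal genes under REST 5 of 19. The stretches of neighbouring genes overlap, as in the Hox clusters and at Peg10 and Sgce, so the same footprint can count for several genes. These shares depended on the stretch of DNA counted. For members farther than 1 kb from a TSS, central neuron genes stood at 45.5% and endothelium genes at 42.9%, beside 14.8% of all genes. Hox genes stood at 33.3% there, smooth muscle genes at 26.3% and urothelium genes at 20.8%. In the gene body, central neuron genes stood at 36.4%, smooth muscle genes at 31.6% and urothelium genes at 20.8%, beside 14.3%. Hepatocyte genes stood below all genes in both stretches, at 7.69%, and Hox genes in the gene body, at 10.3%. Within 50 kb immune genes stood at 78.6% beside 56.4%.

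Within 1 kb of a TSS, a long footprint lay at 3595 of 20780 autosomal protein-coding gene symbols (17.3%). The count was 10 of 14 for housekeeping and 10 of 17 for immediate early genes, 3 of 24 (12.5%) for urothelium, 2 of 19 (10.5%) for smooth muscle and 3 of 16 (18.8%) for fibroblast genes. Those of Upk2, a uroplakin gene, and Elf3, an epithelial ETS factor gene, held an exact CTCF match. At Upk2 the footprint measured 32 and 34 bp in a host peak with a signal of 1.95 in replicate 1 and 3.92 in replicate 2. At Elf3 it measured 27 and 33 bp, with 2.09 and 3.77. Col1a1, a chain of type I collagen, also held an exact CTCF match, at 27 and 26 bp, with 3.27 and 4.52. The third urothelium gene was Pparg, which encodes a nuclear receptor of urothelial differentiation, with a CCAAT box and a signal of 1.88 and 2.34. Among neuronal genes under REST, Chrnb2, an acetylcholine receptor subunit gene, held a REST element in a footprint of 27 and 30 bp, with a host signal of 1.05 and 1.63.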

How the data were processed

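DNase-seq was analysed from the lists the authors deposited for each of the 2 libraries, on mm10 per the labels. Footprint lists give start and end, and the authors' deposited p-value column holds 0.01 throughout and ranks nothing. Peak lists carry a signal column that the authors deposited, used as given to describe and rank peaks within a library. No list pools libraries. Which aligner and caller made them is not given in the sources used. Total depth is unknown, so no interval on counts was computed. Bases were read from GRCm38.p6, which is the assembly of mm10, with tRNA genes from its RefSeq annotation, and TSSs from GENCODE M21.

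Footprints were paired by at least 50% of both lengths, and 40 consensus motifs were read on both strands in 50-bp windows. Genes were extended by 10 kb on both sides, for 13 lists of 236 entries (232 genes), of which 225 genes were matched on autosomes. Named regions were the 10 longest, the 10 in the strongest peaks, the 2 in the strongest peaks for each leading motif, and those at promoters of listed genes. Named motifs were the 8 highest and 4 lowest by ratio. The members, lists and motifs were chosen with earlier results of these data known. Regions printed with a 5′ extension, tRNA genes, the ETS-CRE sites and Junb, Ier2, Chrnb2, Upk2, Elf3, Col1a1 and Pparg were chosen after their values were seen. Some regions the rule takes, such as those of an RFX element, are not described. Scripts were tested on simulated data. Python 3.11.15, NumPy 2.4.6, pandas 2.3.3 and matplotlib 3.10.9 were used.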

Additional observations from a re-analysis of the deposited data

How the results depend on the processing

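The number of long shared footprints moved with the length minimum, from 8230 to 12735 at 22 bp and to 3617 at 30 bp. The other choices of overlap, partner and chromosome gave 6565 to 10125. The CTCF ratio of 11.8 stayed above 1 under every alternative tried. It was 9.18 per kb of footprint with 5 bp on either side, 8.30 in a 100-bp window, 8.98 against all footprints under 25 bp, 23.2 against shorter footprints in the same peaks and 5.98 against shared footprints of 15 to 24 bp. It was 12.5 within 1 kb of a TSS, 10.5 farther away and 9.83 for members of 30 bp or more. In alternatives added after seeing the data it was 8.11 over all long footprints of each library, 8.87 with at most 1 mismatch and 4.57 with at most 2. Per library it was 11.7 to 11.9.

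Other motif ratios depended on the comparison: of 132 values for 11 motifs, 99 moved by more than the SD between libraries and 5 more changed direction. Against shared footprints of 15 to 24 bp the CRE ratio of 3.21 became 1.25, that of ZBTB33 went from 2.41 to 1.00 and that of ZNF143 from 1.53 to 1.06. The NFI palindrome fell to 0.933 against shared footprints of 15 to 24 bp and to 0.952 for members of 30 bp or more, ZBTB33 to 0 farther than 1 kb from a TSS, YY1 to 0.877 within 1 kb, and AP-1 rose to 1.09 against shorter footprints in the same peaks. The cause was not tested.

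The promoter share of the long footprints differed from that of shared shorter ones by -6.10 percentage points, by -5.24 with 500 bp, by -5.79 with 2 kb and by 6.87 against all footprints under 25 bp. Their GC share was 1.26 points higher in 50-bp windows, but the difference was -1.88 in the footprint alone and -1.18 in 200 bp. Their host peaks had 1.88 times the signal of the shorter footprints' hosts, and 3.26 times against all footprints under 25 bp. The centred log2 ratio of host peaks, 0.29, was -0.0314 for hosts without CTCF within 1 kb of a TSS. Genes with a long footprint numbered 7093 with 10 kb, 2974 in the gene body, 11733 with 50 kb and 3076 for members away from TSSs. Of 39 values for 13 gene lists, 21 changed side against all genes.

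No paired analysis was possible because the design has 1 group. With 2 libraries no spread between animals is known, depth is unknown, and a motif match is a reading of letters in the reference, not of binding.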
